A study of Homo sapiens with 4 samples.

Results

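Gene-desert peaks are the weak CUT&RUN peaks that lie far from any protein-coding gene. Peaks were chosen by their score (under 10), their GC content (at least 25%) and their distance from genes. Every annotated protein-coding gene body had to be more than 100 kb away and every annotated transcript start more than 1 kb away. The rule found 5964 of 49583 peaks, which were 3451 of 24212 peaks for wild-type BRG1 (14.3%, 95% Wilson interval 13.8 to 14.7) and 2513 of 25371 peaks for BRG1 without its HSA domain (9.91%, 9.54 to 10.3). CUT&RUN releases and sequences the DNA next to an antibody-bound protein. The protein was a V5-tagged BRG1 that doxycycline induced over 24 h in SW-13, a line from an adrenocortical carcinoma in which neither BRG1 nor the related ATPase BRM is expressed. One group of 2 samples expressed wild-type BRG1 (iBRG1), and the other group of 2 samples expressed BRG1 with the helicase/SANT-associated domain deleted (i∆HSA). Both groups were stable lines grown, according to the methods, from individual selected clones. Both received doxycycline, and both were treated with anti-V5 antibody at 300000 cells per sample.

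Each construct had 1 peak list with no column for a replicate, so no value below has a replicate error and none was tested. Intervals cover counting error only, and peaks that lie in 1 desert are not replicates of a condition. Read depth is unknown. The constructs were carried by different clones, so a difference between constructs cannot be told apart from a difference between clones. Peak lists hold no expression values, so the cell line could not be checked against marker genes here.

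BRG1 is the ATPase that drives the SWI/SNF remodeling complex along DNA to move or evict nucleosomes, and its HSA domain is the helix on which actin-related and other accessory subunits assemble. Gene deserts are long stretches without protein-coding genes. Some hold distant enhancers of developmental genes at their borders, and AP-1, a dimer of FOS and JUN family proteins, is a transcription factor at many distal enhancers and is known to work with SWI/SNF.

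A few stretches of 101 bases show what these peaks look like in sequence. They are the forward strand of GRCh37 (hg19), with only the motif named for each stretch in capitals. Other patterns searched below are not marked. The first 3 are centred on an AP-1 site (TGAGTCA or its reverse complement TGACTCA) within 100 bp of the midpoint of an iBRG1 gene-desert peak, at places where an i∆HSA gene-desert peak also had such a site near its midpoint. They are shown because peaks of both lists meet there. The first lies at chr14:42662438-42662538 between LRFN5 and FSCB, the second at chr10:65498445-65498545 between REEP3 and CTNNA3, and the third at chr2:184181191-184181291 between NUP35 and ZNF804A.
AP-1 site between LRFN5 and FSCB: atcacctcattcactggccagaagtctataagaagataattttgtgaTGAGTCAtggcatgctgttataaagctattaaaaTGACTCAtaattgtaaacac
AP-1 site between REEP3 and CTNNA3: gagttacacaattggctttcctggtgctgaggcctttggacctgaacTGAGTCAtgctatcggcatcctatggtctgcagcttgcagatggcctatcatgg
AP-1 site between NUP35 and ZNF804A: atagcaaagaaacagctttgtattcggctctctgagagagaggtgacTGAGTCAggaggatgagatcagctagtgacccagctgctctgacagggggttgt

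The next pair holds a CTCF pattern, the letters bound by the insulator protein CTCF, in capitals. The iBRG1 sequence is from the only gene-desert peak of that list with the pattern, and the i∆HSA sequence is from the peak with the highest score among those of its list. They lie at chr4:19510598-19510698, in a desert between LCORL and SLIT2, and at chr4:104855494-104855594, between TACR3 and CXXC4.
CTCF pattern, iBRG1: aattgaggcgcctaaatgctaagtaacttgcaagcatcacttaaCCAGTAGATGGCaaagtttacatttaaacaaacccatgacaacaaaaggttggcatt
CTCF pattern, i∆HSA: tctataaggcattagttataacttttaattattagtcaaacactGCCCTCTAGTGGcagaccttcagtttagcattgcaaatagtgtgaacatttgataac

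The last pair is the middle of the peak of each list that lies farthest from any protein-coding gene. Both are in the desert between PCDH7 and ARAP2, at chr4:33565384-33565484 for iBRG1 and at chr4:33542522-33542622 for i∆HSA. They have no AP-1 site and are AT-rich, with a GC content of 26.7% and 34.7%. They are not free of the other patterns searched below. The iBRG1 stretch holds the NFY letters CCAATCA and the i∆HSA stretch the GATA letters AGATAAG, both left in small letters.
Farthest peak, iBRG1: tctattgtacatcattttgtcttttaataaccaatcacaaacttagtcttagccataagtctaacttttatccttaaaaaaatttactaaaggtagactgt
Farthest peak, i∆HSA: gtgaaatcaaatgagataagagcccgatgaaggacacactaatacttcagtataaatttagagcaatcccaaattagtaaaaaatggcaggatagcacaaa

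Score, GC content and distance chose the peaks and are given as a description. Of the 24212 iBRG1 peaks, 21552 had a score under 10, 21355 of those had at least 25% GC, 3664 of those were over 100 kb from protein-coding genes and 3451 also cleared the transcript starts. The same steps left 20890, 20359, 2669 and 2513 of the i∆HSA peaks. At the score limit, 57 iBRG1 and 53 i∆HSA gene-desert peaks had a score of 9, against 38 and 22 otherwise eligible peaks with a score of 10. The peaks nearest to the distance limit lay 100.2 kb (iBRG1) and 100.05 kb (i∆HSA) from a protein-coding gene, and the nearest ones left out lay at 99.98 and 99.99 kb. For transcript starts the closest peaks kept were at 1.01 and 1.02 kb and the closest left out at 0.987 and 0.991 kb. GC content was 25.0% just inside the limit in both lists and 24.9% (iBRG1) and 25.0% (i∆HSA, 24.99 before rounding) just outside it.

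The surplus of iBRG1 gene-desert peaks lay at the lowest scores. Scores of 0 or 1 were held by 1413 iBRG1 and 160 i∆HSA gene-desert peaks, whereas scores of 5 to 9 were held by 468 and 554. Peaks outside the deserts, of the same score and GC range, had the same pattern. They numbered 5432 and 652 at scores of 0 or 1, and 1485 and 2103 at scores of 7 to 9. The scale of the score is not stated and the i∆HSA list starts at a higher score, so how far the surplus reflects the score range of each list cannot be told apart from a difference between the constructs.

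Low-score peaks were sparser in gene deserts than elsewhere in both lists. The deserts, as the rule defines them, made up 758.4 Mb or 26.5% of the sequence without unknown bases. They held 4.55 iBRG1 peaks per Mb (exact Poisson 95% interval 4.40 to 4.70) and 3.31 i∆HSA peaks per Mb (3.19 to 3.45). In the rest of the genome, peaks of the same score and GC range stood at 8.52 per Mb for iBRG1 (8.40 to 8.65) and 8.50 per Mb for i∆HSA (8.37 to 8.62). Density in deserts was thus 0.534 times that elsewhere for iBRG1 and 0.390 times for i∆HSA. Over all scores under 10, the lists had almost the same density outside the deserts and differed inside them. This contrast depends on the score range. At scores of 7 to 9, comparable peaks numbered 1485 for iBRG1 and 2103 for i∆HSA, and gene-desert peaks numbered 196 and 199.

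Within the deserts, the density of iBRG1 peaks was lower at each step of distance, and that of i∆HSA peaks was lowest at 200 to 500 kb. Between 100 and 200 kb from the nearest protein-coding gene there were 4.97 iBRG1 peaks per Mb (4.68 to 5.27) and 3.87 i∆HSA peaks per Mb (3.62 to 4.14). Between 200 and 500 kb the values were 4.52 (4.28 to 4.76) and 2.74 (2.56 to 2.94), and between 500 and 1000 kb they were 4.29 (3.99 to 4.62) and 3.30 (3.03 to 3.59). Beyond 1000 kb the lists met, at 4.00 (3.55 to 4.50) and 3.99 (3.53 to 4.48) peaks per Mb. Neighbouring intervals overlapped along the iBRG1 series, and the first range stood apart from the ranges beyond 500 kb by more than counting error.

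**Figure D1:**
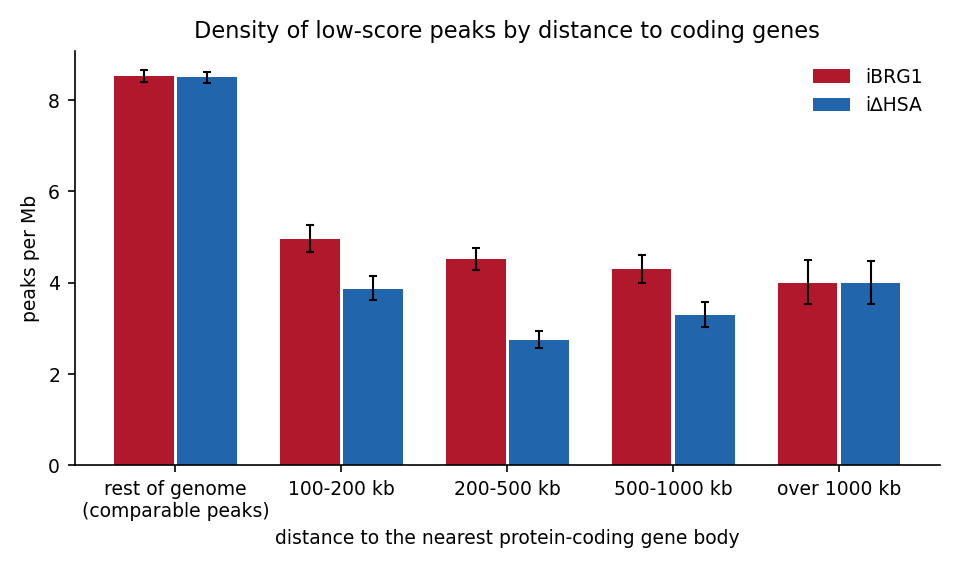
Peaks per Mb of sequence (vertical axis) for comparable low-score peaks in the rest of the genome and for gene-desert peaks in 4 ranges of distance to the nearest protein-coding gene body, iBRG1 in red and i∆HSA in blue, with exact Poisson 95% intervals as error bars. The rest of the genome stood at 8.52 and 8.50 per Mb, and the widest gap between the lists was at 200 to 500 kb, with 4.52 against 2.74 per Mb.

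The median gene-desert peak lay 296 kb from the nearest protein-coding gene in the iBRG1 list (quartiles 171 and 553 kb) and 306 kb in the i∆HSA list (161 and 637 kb). The 5 farthest peaks of iBRG1 lay at 2144 to 2384 kb and those of i∆HSA at 2213 to 2393 kb. All but 1 of these 10 peaks lay between PCDH7, a protocadherin, and ARAP2, a regulator of small GTPases. The other was an iBRG1 peak 2149 kb from TENM3, a teneurin that guides neuronal wiring. None of the 10 overlapped a peak of the other list, and their scores ranged from 0 to 5. Among all gene-desert peaks only 8.78% (iBRG1) and 8.83% (i∆HSA) did so, and 10 peaks are too few to set apart from those shares.

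Gene-desert peaks were AT-rich and, except at the highest scores of the range, narrower than comparable peaks. Their median width was 1038 bp for iBRG1 (quartiles 482 and 1818) and 975 bp for i∆HSA (437 and 1824), against 1280 and 1234 bp in comparable peaks elsewhere. At scores of 7 to 9 the order of widths turned. Gene-desert and comparable medians there were 2046.5 and 1835 bp for iBRG1, and 1874 and 1823 bp for i∆HSA. Median GC content was 35.8% (iBRG1) and 33.5% (i∆HSA), against 39.4% in comparable peaks of either list. Windows of 201 bp at a distance of 2 kb had a median GC content of 37.6% and 37.8%. Comparable peaks showed the same order, with windows at 41.8% (iBRG1) and 43.3% (i∆HSA). More GC than in the 2-kb windows was found in 40.2% of iBRG1 (38.6 to 41.8) and 28.3% of i∆HSA gene-desert peaks (26.6 to 30.1), against 40.6% and 32.1% of all peaks, so the iBRG1 value was at its background.

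CpG-rich sequence of the kind found at promoters was rare. A ratio of observed to expected CpG of at least 0.6 was reached by 22 iBRG1 peaks (0.637%, 0.421 to 0.963) and 44 i∆HSA peaks (1.75%, 1.31 to 2.34), against 7.57% and 7.62% of comparable peaks elsewhere. The rule left out peaks near transcript starts, where such sequence is common. No reads were examined, so their placement was not judged directly. Repetition in the genome was measured instead, with words of 36 bases, which are shorter than the paired reads of the study. At least 90% of the 36-base words in the middle 200 bp occurred once in the genome for 86.4% of iBRG1 (85.2 to 87.5) and 80.1% of i∆HSA gene-desert peaks (78.5 to 81.6), and under 50% did for 5.85% and 8.87%. Over all peaks, these shares were 84.2% and 74.8% for the first measure and 6.38% and 10.4% for the second. The part of these repeated sequences in the results was not tested.

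Few gene-desert peaks were found in both lists. Of the iBRG1 gene-desert peaks, 303 (8.78%, 7.88 to 9.77) overlapped an i∆HSA peak of any kind by at least 1 bp, against 20.5% of all iBRG1 peaks and 17.0% (16.4 to 17.5) of comparable peaks elsewhere. Of the i∆HSA gene-desert peaks, 222 (8.83%, 7.79 to 10.0) overlapped an iBRG1 peak, against 19.6% of all i∆HSA peaks and 14.1% (13.6 to 14.6) of comparable peaks. The shares in gene deserts were below both backgrounds.

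Partners were gene-desert peaks in most cases. In 186 overlaps of the iBRG1 peaks the i∆HSA partner was itself a gene-desert peak, and in 113 (37.3%) its score was 10 or more. The 222 i∆HSA peaks had a gene-desert partner in 186 cases and a partner of score 10 or more in 32 (14.4%). The median score of the partner was 6 for the iBRG1 peaks and 4 for the i∆HSA peaks, on the scale of the other list. Overlapping gene-desert peaks had a median width of 1968 bp in the iBRG1 list and 1952 bp in the i∆HSA list, against 910 and 884 bp for those found in 1 list only. Their median score was 4 in both lists, against 2 (iBRG1) and 3 (i∆HSA). A wider peak meets another by position more readily, and the part of width in the overlap was not tested.

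Overlap rose with score, and gene-desert peaks stayed below comparable peaks across most of the range. For iBRG1 the share with an i∆HSA peak went from 3.96% (3.06 to 5.11) at scores of 0 or 1 to 29.6% (23.6 to 36.3) at scores of 7 to 9, and in comparable peaks it went from 7.73% (7.05 to 8.47) to 35.3% (32.9 to 37.8). For i∆HSA it went from 3.13% (1.34 to 7.11) to 22.1% (16.9 to 28.4), against 3.37% (2.24 to 5.06) and 33.1% (31.1 to 35.1). The intervals of gene-desert and comparable peaks overlapped at scores of 4 and of 7 to 9 for iBRG1, and at scores of 0 to 2 and of 4 for i∆HSA.

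**Figure D2:**
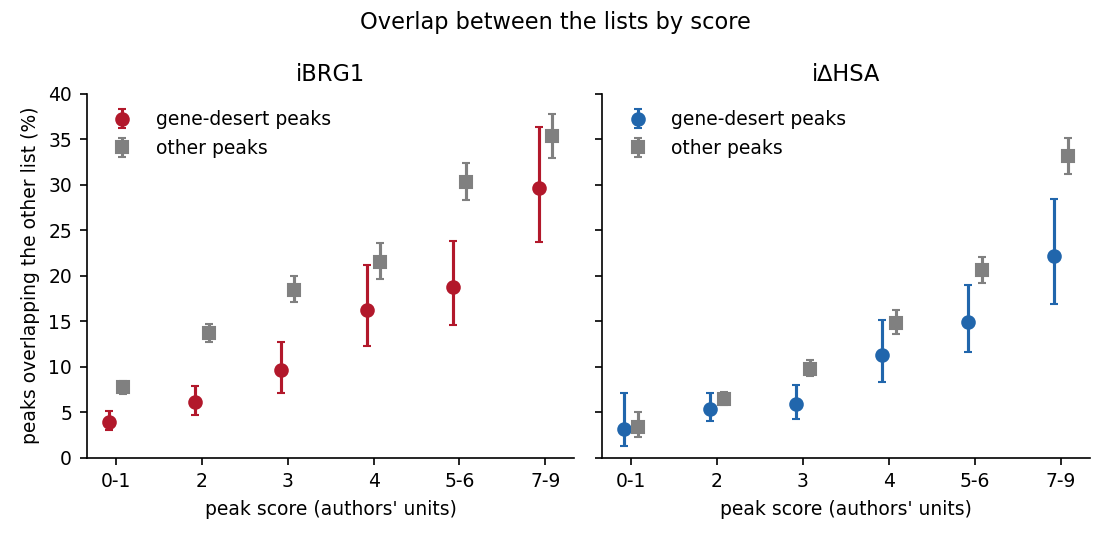
Share of peaks (%) that overlap the other list, by score in the authors' units, for gene-desert peaks (coloured circles) and comparable peaks elsewhere (grey squares), iBRG1 on the left and i∆HSA on the right, with Wilson 95% intervals. Both kinds of peak rise with score, to 29.6% and 22.1% for gene-desert peaks and 35.3% and 33.1% for the others at scores of 7 to 9.

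AP-1 was the motif that stood out at the middle of the peaks. Patterns for 12 factors were looked for on either strand within 100 bp of the midpoint, and no pattern contains another. For AP-1 the letters were TGAGTCA or TGACTCA. An AP-1 site was present in 251 iBRG1 gene-desert peaks (7.27%, 6.45 to 8.19), against 3.20% (2.81 to 3.64) of windows of the same length 2 kb to either side. In the i∆HSA list 130 gene-desert peaks had one (5.17%, 4.37 to 6.11), against 3.34% (2.88 to 3.88) of the windows at 2 kb. Over all peaks the shares were 8.9% for iBRG1 and 6.18% for i∆HSA, and in comparable peaks they were 8.23% (7.84 to 8.64) and 5.48% (5.16 to 5.82). Over all scores under 10, gene-desert peaks were thus close to, and a little under, the background of their own list. Their intervals overlapped those of comparable peaks. By score, i∆HSA gene-desert peaks were above comparable peaks at scores of 0 to 2 and 5 to 9, with overlapping intervals. They were below them at 3 and 4, by more than the intervals at 3 (2.85% against 5.21%). iBRG1 ones were below comparable peaks at every score range but 3, with overlapping intervals.

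Within 100 bp, AP-1 sites were spread around the midpoint rather than set on it in both lists. Of the 251 iBRG1 peaks, 61 had the nearest site within 25 bp of the midpoint, 70 at 26 to 50 bp, 66 at 51 to 75 bp and 54 at 76 to 100 bp. Of the 130 i∆HSA peaks, these numbers were 37, 42, 24 and 27, and the intervals of these shares overlapped. In bins of 100 bp, the highest share of iBRG1 gene-desert peaks with a site was 3.97% (3.37 to 4.67), in the bin just past the midpoint, and 1.42% (1.08 to 1.87) had one in the bin centred 1450 bp away on the same side. For i∆HSA the share was 3.34% (2.71 to 4.12) in the bin centred 150 bp before the midpoint and 1.35% (0.970 to 1.88) in the outermost bin after it. The i∆HSA bins just before and just past the midpoint held 2.43% (1.89 to 3.11) and 2.98% (2.39 to 3.72).

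**Figure D3:**
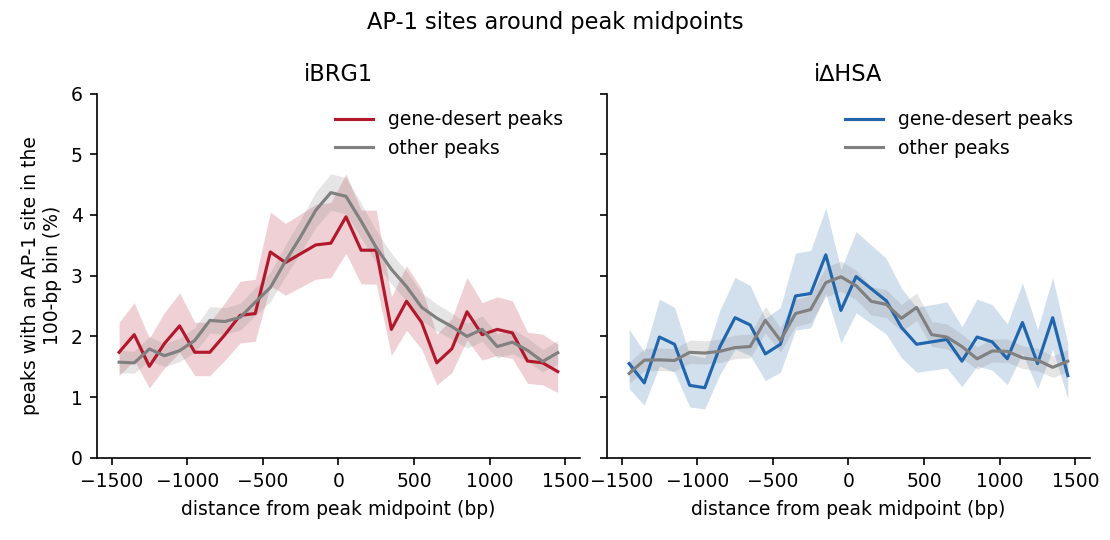
Share of peaks (%) with an AP-1 site in each 100-bp bin, by distance from the peak midpoint in bp, for gene-desert peaks (coloured) and comparable peaks elsewhere (grey), with Wilson 95% intervals as bands, iBRG1 on the left and i∆HSA on the right. The coloured lines rise to 3.97% (iBRG1) and 3.34% (i∆HSA) near the midpoint and reach at most 2.41% in bins more than 500 bp away.

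Peaks of both lists held the AP-1 site more often than peaks of 1 list, by more than the intervals only for i∆HSA. It was present in 33 of 303 overlapping iBRG1 gene-desert peaks (10.9%, 7.86 to 14.9) and in 218 of 3148 found in that list only (6.93%, 6.09 to 7.87), and these intervals just overlapped. In the i∆HSA list it was present in 32 of 222 overlapping peaks (14.4%, 10.4 to 19.6) and in 98 of 2291 others (4.28%, 3.52 to 5.19). The windows at 2 kb from those others held a site in 3.49% (2.998 to 4.06), which overlaps the value at their midpoints. For gene-desert peaks that only the i∆HSA list held, a surplus of AP-1 sites at the midpoint was therefore not detectable with this number of peaks. Overlapping peaks also had higher scores. The AP-1 share of iBRG1 gene-desert peaks was 5.38% (4.32 to 6.68) at scores of 0 or 1 and 12.2% (8.37 to 17.6) at 7 to 9. For i∆HSA it was 7.5% (4.34 to 12.7), 2.85% (1.81 to 4.46) at a score of 3, and 8.54% (5.40 to 13.3). The part of score was not tested.

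A site was present in 8 of the 186 overlapping pairs of gene-desert peaks within 100 bp of both midpoints (4.30%, 2.195 to 8.26). The pair with the highest summed score was the one between LRFN5, a synaptic adhesion protein, and FSCB, where the iBRG1 peak had a score of 6 and the i∆HSA peak a score of 9. These peaks shared 1442 bp, and their midpoints were 80 bp apart. The printed sequence there holds a second AP-1 site. Next came the pair between REEP3 and CTNNA3, with scores of 7 and 5 and midpoints 7 bp apart. At the pair between NUP35 and ZNF804A, both with a score of 4, the midpoints lay 834 bp apart, so the sites near them are not the same one. The other 2 named pairs lay between SPRY1 and ANKRD50 (scores 2 and 6, midpoints 742 bp apart) and between GIMD1 and DKK2 (scores 1 and 6, midpoints 116 bp apart).

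Of the other 11 patterns, 1 differed from the windows at 2 kb by more than the intervals, which was NFY in the iBRG1 list. TEAD sites (ACATTCC), bound by the factors that carry YAP and TAZ, were present in 3.85% of iBRG1 gene-desert peaks (3.26 to 4.55) against 3.07% of windows (2.69 to 3.51), and in 2.51% of i∆HSA ones (1.96 to 3.19) against 3.06% (2.62 to 3.58). Over all peaks the TEAD shares were 3.99% and 2.98%. NFY sites (CCAATCA) were present in fewer iBRG1 peaks (1.77%, 1.38 to 2.26) than windows (2.65%, 2.30 to 3.06), and their share of all iBRG1 peaks was much the same, at 1.88%. The CTCF pattern was present in 1 of 3451 iBRG1 peaks (0.0290%, 0.00512 to 0.164) and in 8 of 2513 i∆HSA peaks (0.318%, 0.161 to 0.627), against 0.0290% and 0.0597% (0.0203 to 0.175) of windows and 0.149% and 0.386% of all peaks. None of these 9 peaks overlapped the other list, which only 8.78% of iBRG1 and 8.83% of i∆HSA gene-desert peaks did. SF-1, a steroidogenic factor of the adrenal cortex, had its pattern TCAAGGTCA in 13 iBRG1 peaks (0.377%, 0.220 to 0.643) and 5 i∆HSA peaks (0.199%, 0.0850 to 0.465), against 0.319% and 0.199% of windows and 0.227% and 0.213% of all peaks. The remaining 7 patterns had centre and window intervals that overlapped in both lists. For the blood and bone factors RUNX the letters were TGTGGTT. ETS factors, common at promoters, were searched as CCGGAAG. Sites of the GATA proteins were AGATAAG, and sites of the forkhead proteins (FOX) were TGTTTAC. The GC-rich box of SP and KLF proteins was GGGCGGG, the E-box was CACGTG, and the last was NRF1.

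Many of the gene-desert peaks lay inside genes for long non-coding RNAs (lncRNAs), which the rule did not use beyond its distance to transcript starts. The count was 1201 for iBRG1 (34.8%, 33.2 to 36.4), against 19.8% of all its peaks, and 907 for i∆HSA (36.1%, 34.2 to 37.99), against 18.9%. Deserts themselves were 31.4% lncRNA gene body, which is the closer background. By midpoint alone the shares were 34.5% (32.9 to 36.1) and 35.8% (33.9 to 37.7), a little above that value. Exons of lncRNAs were touched by 94 iBRG1 (2.72%, 2.23 to 3.32) and 79 i∆HSA peaks (3.14%, 2.53 to 3.90), against 6.20% and 6.38% of all peaks. The rule left out peaks near transcript starts, where first exons lie.

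In all, 983 lncRNA genes had at least 1 gene-desert peak, 294 of them in both lists. The gene with the most was ENSG00000228566 at chr10:65424424-66453203, with 10 iBRG1 and 17 i∆HSA peaks, none over an exon. LINC02240 at chr5:124144674-124937920 followed with 13 and 10 peaks, 2 of them over an exon. CCDC26, a long lncRNA gene at chr8:129646445-130696016, had 10 and 11. ENSG00000286481 at chr2:122660077-123645267 had 13 and 5, and ENSG00000229618 at chr7:12765777-13791545 had 9 and 6. The bodies of these 5 genes span 793 to 1050 kb, so long genes lead the order by count.

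Deserts form 1624 separate blocks, each named here by the protein-coding genes on its left and right. A block had a median length of 0.222 Mb, and the longest was 4.58 Mb. At least 1 gene-desert peak was found in 882 blocks for iBRG1 and in 725 for i∆HSA, with 556 blocks in both lists and 573 blocks in neither. The 238 blocks of at least 1 Mb held 52.3% of the iBRG1 and 56.9% of the i∆HSA gene-desert peaks. In these long blocks the median density was 3.84 iBRG1 peaks per Mb (quartiles 1.67 and 6.17) and 2.28 i∆HSA peaks per Mb (0.801 and 4.52). The densities of the lists were related in part across blocks (Spearman's rho 0.511 and Pearson's r 0.488 over 238 blocks, which share base composition and uniqueness of sequence between the lists). iBRG1 had more peaks in 140 long blocks, i∆HSA in 70, and 28 had equal numbers.

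The block with the most gene-desert peaks was the longest, PCDH7 to ARAP2 on chromosome 4, with 37 iBRG1 and 38 i∆HSA peaks. SLITRK5 to GPC5 on chromosome 13 had 29 and 36, between a neuronal transmembrane protein and a glypican. SEL1L to FLRT2 on chromosome 14 had 35 and 30, and PLA2G4A to BRINP3 on chromosome 1 had 20 and 31. REEP3 to CTNNA3 on chromosome 10, which holds the second AP-1 sequence, had 23 and 30 in 2.09 Mb and was the densest long block, at 25.4 peaks per Mb with both lists summed. ZNF608 to GRAMD2B on chromosome 5 (20 and 14 peaks, 24.1 per Mb) and MYC to GSDMC on chromosome 8 (21 and 21 peaks, 23.3 per Mb) came next in density. MYC is a growth-driving transcription factor whose flanking desert is known for distant enhancers.

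Some blocks differed widely in count between the lists. The blocks in this paragraph were chosen after their values were seen, from among those with the largest differences in count. NUDT12 to EFNA5 on chromosome 5, the only one that is also among the 6 fullest, had 34 iBRG1 and 15 i∆HSA peaks. CITED2 to NMBR on chromosome 6 had 27 and 8, and JRKL to CNTN5 on chromosome 11 had 17 and 2. GOT2 to CDH8 on chromosome 16 had 13 and 0. In the other direction, GBE1 to CADM2 on chromosome 3 had 2 iBRG1 and 23 i∆HSA peaks, PCDH9 to KLHL1 on chromosome 13 had 13 and 32, NSUN3 to EPHA6 on chromosome 3 had 7 and 23, and CDH10 to CDH9 on chromosome 5 had 6 and 20. With 1 list per construct, no replicate shows how far such counts vary between samples of 1 construct.

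**Figure D4:**
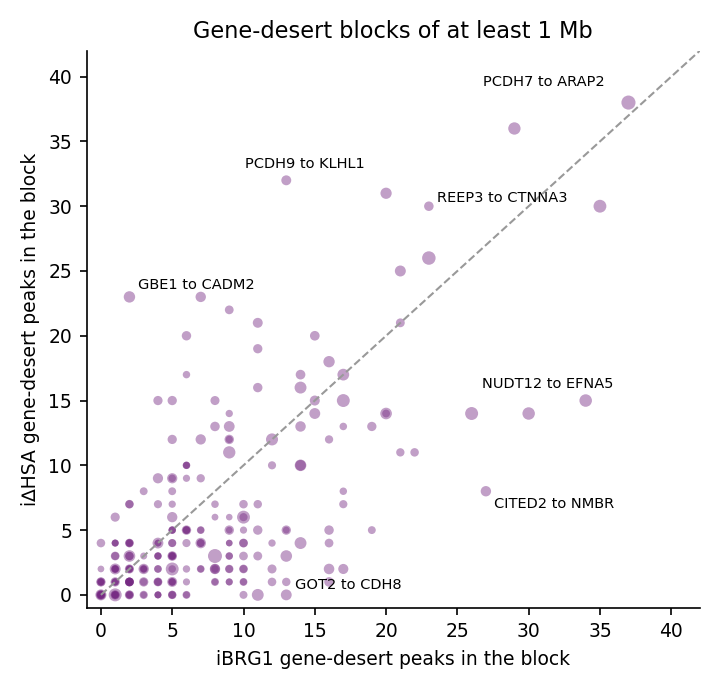
Number of i∆HSA against iBRG1 gene-desert peaks in each of the 238 desert blocks of at least 1 Mb, 1 point per block with area in proportion to its length, and a dashed line at equal numbers. PCDH7 to ARAP2 lies near the line at 37 and 38 peaks, GBE1 to CADM2 (2 and 23) far above it, and CITED2 to NMBR (27 and 8) far below it.

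Counted by gene, 1493 protein-coding genes were the nearest one to at least 1 gene-desert peak, 661 of them in both lists. The 10 that led were CDH9 (24 iBRG1 and 23 i∆HSA peaks), FLRT2 (19 and 27), NCAM2 (22 and 24), PCDH7 (22 and 24), PCDH9 (12 and 27), SLITRK5 (19 and 17), ARAP2 (17 and 18), GPC5 (12 and 21), PIK3C3 (14 and 19) and BRINP3 (10 and 22). The first 6 encode adhesion and guidance proteins of the nervous system, such as the cadherin CDH9 and the neural cell adhesion molecule NCAM2. Such genes border long deserts, and the whole list of 101 neuronal adhesion and guidance genes was at its background in the iBRG1 list and a little above it in the i∆HSA list. It was nearest to 11.9% of iBRG1 (10.8 to 13.0) and 13.7% of i∆HSA gene-desert peaks (12.4 to 15.1), and to 11.8% of desert sequence. The 197 developmental transcription factors were nearest to 6.98% (6.18 to 7.88) and 5.85% (5.00 to 6.84), against 6.23% of desert sequence. Nearness in the genome does not show which gene, if any, a peak acts on.

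Chromosomes differed in how the lists compared. iBRG1 gene-desert peaks ranged from 1.52 to 6.84 per Mb of desert over the 21 chromosomes with at least 20 peaks in 1 list or both, and those of i∆HSA from 1.40 to 5.12 per Mb. On 18 of the 21 chromosomes the i∆HSA list had fewer gene-desert peaks, as it did in total (2513 against 3451). Its comparable peaks outside the deserts were fewer on 12 of the 21. For gene-desert peaks the exceptions were chromosome 3 (174 iBRG1 and 213 i∆HSA peaks), chromosome 13 (125 and 143) and chromosome 14 (122 and 127). Chromosome 2 had 452 and 240. The X chromosome was sparse in both, at 1.52 (iBRG1) and 1.497 (i∆HSA) peaks per Mb. Its comparable peaks were sparse as well, at 4.62 and 6.49 per Mb, against 8.52 and 8.50 over all chromosomes.

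Chromosome 11 was singled out after its values were seen, as the one with the lowest ratio. It held 160 iBRG1 and 38 i∆HSA gene-desert peaks, or 5.88 per Mb (5.01 to 6.87) and 1.40 per Mb (0.989 to 1.92). Comparable peaks elsewhere on it numbered 1028 and 807, so the gap was wider in its deserts. It was also a gap of weak peaks. With scores of 5 to 9 the gene-desert peaks of chromosome 11 numbered 12 and 11, and desert peaks with a score of 10 or more numbered 6 and 8. The same held over the whole genome, with 468 and 554 at scores of 5 to 9 and 267 and 409 at 10 or more. The cause was not tested.

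**Figure D5:**
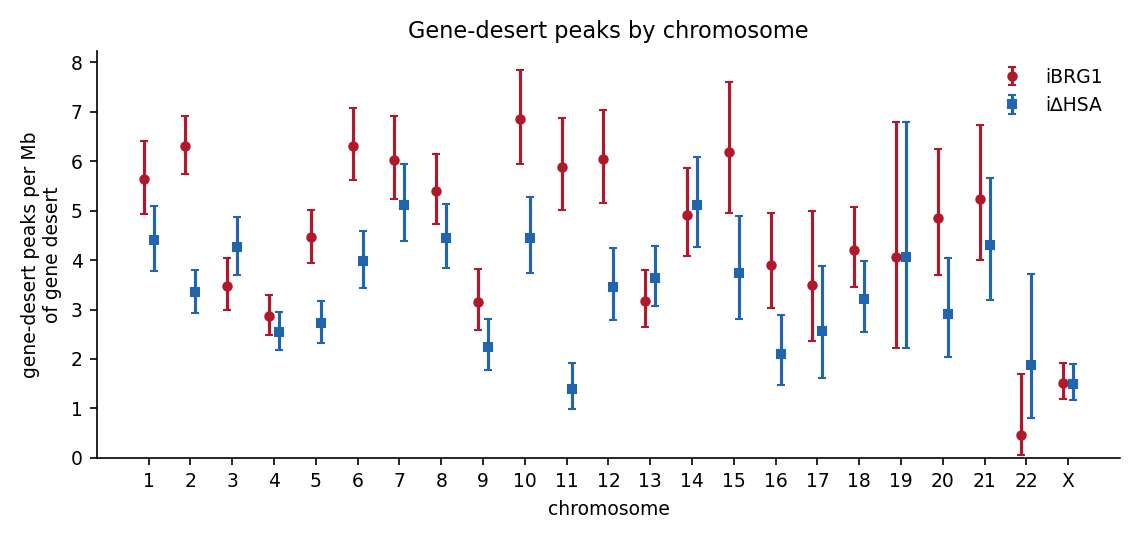
Gene-desert peaks per Mb of gene desert (vertical axis) on each chromosome except Y, iBRG1 as red circles and i∆HSA as blue squares, with exact Poisson 95% intervals. Chromosome 11 shows the widest gap, 5.88 against 1.40 per Mb, while i∆HSA lies above iBRG1 on chromosomes 3, 13, 14 and 22.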

How the data were processed

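CUT&RUN with an anti-V5 antibody was performed on 2 iBRG1 and 2 i∆HSA samples, and groups were taken from the sample titles. According to the methods and the submitters' processing notes, the authors used Cutadapt, Bowtie2, Picard, SAMtools and MACS2 2.2 with hg19, removed control peaks and applied a minimum score of 5. The deposited values are 1 whole-number score per peak, on a scale that is not stated, and scores below the stated minimum are present. Whether replicates were pooled is not stated. Vehicle-treated cells and controls were not analysed here.

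Peaks were annotated with GENCODE release 44 on GRCh37 in Python 3.11.15 (numpy 2.4.6, pandas 2.3.3, scipy 1.17.1, pysam 0.24.0, numba 0.67.0, matplotlib 3.10.9), and 0 peaks ended past a chromosome. Comparable peaks were all others with score under 10 and at least 25% GC. Shares have Wilson and densities exact Poisson 95% intervals. Functions were tested on simulated data. Gene-desert peaks, gene lists, motifs and settings were chosen with earlier results of these data known. Named loci followed a fixed rule: the 5 farthest peaks per list, the 6 fullest and 3 densest blocks, 5 pairs with AP-1 at both midpoints, 5 lncRNA genes and 10 nearest genes. Other named loci were chosen after their values were seen.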

Additional observations from a re-analysis of the deposited data

How the results depend on the processing

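No paired analysis was possible because the lists carry no replicate columns, which also prevented leave-one-out values. Under the alternatives, 40 recomputed values stayed within their counting interval (counts within 1.5 times) and 18 did not. With scores of 5 to 9 only, there were 468 iBRG1 and 554 i∆HSA gene-desert peaks. In that range 23.3% and 17.5% overlapped the other list, 11.3% and 7.76% had an AP-1 site, 39.96% and 40.1% lay in lncRNA genes, and density relative to the rest of the genome was 0.379 and 0.295. A reciprocal overlap of at least 50% left 4.67% and 4.02% shared. A window of 250 bp on each side gave AP-1 shares of 16.1% and 12.7%. For i∆HSA, a distance of more than 50 kb gave 34.2% in lncRNA genes and a relative density of 0.417, a distance of more than 200 kb left 1654 peaks, and no GC limit gave a relative density of 0.419. No score filter as high as the minimum of 5 in the methods was applied to the values in the text. If that minimum is on the scale of the deposited scores, most gene-desert peaks fall below it. Only 468 of 3451 (iBRG1) and 554 of 2513 (i∆HSA) reach it. Read depth, which limits weak peaks most, is unknown.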

Other observations

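Desert peaks that the rule left out differed from the gene-desert peaks described above. The 267 iBRG1 desert peaks with a score of 10 or more held an AP-1 site in 16.1% (12.2 to 21.0) and a TEAD site in 8.99% (6.11 to 13.0), and 46.1% (40.2 to 52.1) overlapped an i∆HSA peak. The 409 i∆HSA desert peaks of that score held an AP-1 site in 12.5% (9.61 to 16.0) and a TEAD site in 3.42% (2.05 to 5.66), and 46.9% (42.2 to 51.8) overlapped an iBRG1 peak. Desert peaks under 25% GC numbered 78 for iBRG1 and 484 for i∆HSA. An AP-1 site was present in 1 of the former (1.28%, 0.227 to 6.91) and 3 of the latter (0.620%, 0.211 to 1.81), and 46.2% (35.5 to 57.1) and 9.50% (7.20 to 12.4) overlapped the other list.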
